A study of Mus musculus with 9 samples.

Results

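The nuclear-encoded subunits of the respiratory chain and of ATP synthase were followed in 9 expression arrays of TAMH cells, a hepatocyte cell line derived from mice that carry a TGF-alpha transgene. A gene was a member if its symbol in the platform annotation began with Nduf (complex I), Sdha, Sdhb, Sdhc or Sdhd (complex II), Uqcr (complex III), Cox followed by 4 to 8 (complex IV) or Atp5 (ATP synthase), or was Cyc1 or Cycs. The rule took 89 of 12393 genes, with 164 probe sets, and a gene was represented by its probe set with the highest mean. Of these, 82 were expressed, against 6700 of all genes, where expressed means a mean log2 value over the 9 arrays of at least 5.67, the median of all probe-set means. By complex, the expressed members were 6 core and 26 accessory subunits of complex I, 4 subunits of complex II, 9 of complex III, cytochrome c (Cycs), 11 of complex IV, 17 of ATP synthase, and 8 assembly factors whose symbols begin with Ndufaf or Sdhaf. Ndufa4, named for complex I, was counted with complex IV, of which it is a subunit.

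Cells received acetaminophen (APAP) at 2 mM, its regioisomer AMAP at 2 mM, or control medium, for 2, 6 or 24 h. APAP carries its hydroxyl group in the para position of the ring and AMAP in the meta position, and the study's title calls AMAP less hepatotoxic. All groups are the same transgenic line, labelled C57BL/6, and each treatment was made from 2 dishes that gave 1 array per treatment and time. There is thus no replicate at any single time, so differences between 2 arrays at the same time are given as log2 values without an error or a test.

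The respiratory chain passes electrons from NADH through complex I, or from succinate through complex II, to ubiquinone, and on through complex III and cytochrome c to complex IV, which reduces oxygen. Complexes I, III and IV pump protons out of the mitochondrial matrix, and ATP synthase uses their return to make ATP. In hepatocytes a reactive metabolite of APAP binds mitochondrial proteins, and impaired respiration is a known feature of its toxicity. Most subunits are encoded in the nucleus, where the factors NRF1, the ETS protein GABP and YY1 are known to act at many of their promoters, and the rest in mitochondrial DNA; no mitochondrially encoded subunit was among the genes analysed here.

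The promoters of the members held the motifs of these 3 factors in varied combination. Promoter sequences from RefSeq on GRCm38.p6, which run from upstream of each gene's start to just past it, were found for 74 of the 89 members, as 79 promoters. The NRF1 motif GCGCANGCG was found, counting both strands, in 27.8% of the members' promoters, against 15.3% of promoters of expressed genes on the arrays and 6.25% of all promoters. The ETS motif CCGGAAG was in 25.3%, 20.3% and 8.86% of the same 3 sets, and the YY1 motif AAGATGGC in 11.4%, 5.04% and 2.75%. At least 1 of the 3 was in 55.7% of members' promoters, against 35.1% for expressed genes. Members had 79 promoters for 74 genes, and expressed genes 7119 for 5534. Counted by gene, NRF1 was found in 28.4% of members against 18.0% of expressed genes. ETS was found in 27.0% against 23.8%, YY1 in 12.2% against 6.22%, and at least 1 of the 3 in 58.1% against 40.8%. The median GC content was 59.0% for members and 61.3% for expressed genes, and the share of each motif was not compared at matched GC content. The promoters of 4 members that return below are shown, Sdha and Uqcrc1 with 3 NRF1 matches each, Ndufaf4 with 2, and Cox8a with 2 ETS matches, which read on the opposite strand to the gene. In Uqcrc1 and Ndufaf4 a pair of the NRF1 matches, 1 on each strand, overlaps. Capitals mark the matches, and a match is a run of letters, not a measured binding site. They lie at chr13:74350191-74350490 (minus strand) for Sdha, chr9:108936398-108936697 (plus) for Uqcrc1, chr4:24897833-24898132 (plus) for Ndufaf4 and chr19:7217567-7217866 (minus) for Cox8a.
Sdha: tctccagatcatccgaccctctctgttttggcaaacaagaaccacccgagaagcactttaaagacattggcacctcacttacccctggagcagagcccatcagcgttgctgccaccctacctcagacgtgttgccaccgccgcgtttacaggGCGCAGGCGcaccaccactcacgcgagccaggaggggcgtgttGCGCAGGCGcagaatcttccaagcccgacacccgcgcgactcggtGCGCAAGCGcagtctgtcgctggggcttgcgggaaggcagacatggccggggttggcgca
Uqcrc1: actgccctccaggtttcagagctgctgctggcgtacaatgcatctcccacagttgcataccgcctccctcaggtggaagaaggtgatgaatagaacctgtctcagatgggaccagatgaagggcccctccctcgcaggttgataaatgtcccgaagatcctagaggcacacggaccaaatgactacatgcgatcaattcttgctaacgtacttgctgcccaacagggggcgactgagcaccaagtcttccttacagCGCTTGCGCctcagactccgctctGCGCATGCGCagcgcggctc
Ndufaf4: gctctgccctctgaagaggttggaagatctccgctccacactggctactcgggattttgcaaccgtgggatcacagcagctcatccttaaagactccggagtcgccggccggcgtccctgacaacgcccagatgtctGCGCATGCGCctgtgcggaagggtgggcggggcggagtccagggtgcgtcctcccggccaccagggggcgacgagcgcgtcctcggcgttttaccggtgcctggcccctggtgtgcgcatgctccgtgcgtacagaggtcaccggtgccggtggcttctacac
Cox8a: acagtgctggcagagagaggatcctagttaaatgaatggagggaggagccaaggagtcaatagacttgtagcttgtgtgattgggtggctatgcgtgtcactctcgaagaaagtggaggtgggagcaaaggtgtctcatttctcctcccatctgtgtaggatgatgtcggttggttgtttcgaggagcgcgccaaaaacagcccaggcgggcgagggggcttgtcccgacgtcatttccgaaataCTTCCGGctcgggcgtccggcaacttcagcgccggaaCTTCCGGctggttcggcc

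The arrays were not all alike. On the arrays of APAP at 6 and 24 h and of AMAP at 24 h, the middle probe set of dap, a bacterial control RNA, read -1.72, -1.58 and -1.94 log2 against its 3′ probe set, and on the other 6 arrays it read between -0.60 and -0.44. The 5′ probe set of dap did not separate them, with -1.04, -0.80 and -1.23 against -1.16 to -0.70. For Gapdh the middle probe set read 0.37, 0.30 and 0.36 against 0.10 to 0.24 on the other 6. The 5′ probe set of Gapdh and both of actin overlapped between the 2 sets of arrays. The lower quartile of all probe sets was 3.922, 3.817 and 3.844 on those 3 arrays, against 3.499 to 3.629 on the other 6. Between the 2 sets of arrays 28 of the 82 members did not overlap, a split drawn after the values were seen. On the 3 arrays 15 of them were above and 13 below the other 6, where 14.7% of all expressed genes were above and 10.2% below. The 4 comparisons that use none of the 3 arrays are both treatments against control at 2 h, APAP against AMAP at 2 h, and AMAP against control at 6 h. All 11 hepatocyte markers on the arrays, among them Alb and Ttr, were above the expression threshold on every array, while 0 of 6 macrophage and 0 of 5 endothelial markers were, on any array. Of 6 stellate cell and fibroblast markers 1, Des, was above it on the 3 arrays apart, and 0 were on the other 6. Of 4 cholangiocyte markers 3 (Krt7, Krt19 and Sox9) were above it on all 9 arrays. The log2 of the summed linear levels of all 4 was 10.71 in APAP at 2 h against 9.27 in control at 2 h. These were the highest and lowest of the arrays. The part of either in the differences below was not tested.

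The members varied little from array to array. The SD of a member over the 9 arrays had a median of 0.179 log2, against 0.260 for all expressed genes, and over the 6 arrays that did not stand apart it was 0.095 against 0.174. The members also had a higher median level, 10.28 log2 against 7.90 for all expressed genes. Neither the SDs nor the 1.5-fold counts below were compared at matched level. The complexes differed little in this, with medians over the 9 arrays from 0.160 for ATP synthase to 0.180 for complex IV among the classes of more than 1 subunit, while the assembly factors had 0.203. Ndufb8, an accessory subunit of complex I, had the smallest SD, 0.050, with values between 10.47 and 10.63 on all arrays. Ndufaf4, an assembly factor of complex I, had the largest, 0.523. The heat map of members shows the columns of the 3 arrays in stronger colours than the rest.

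**Figure D1:**
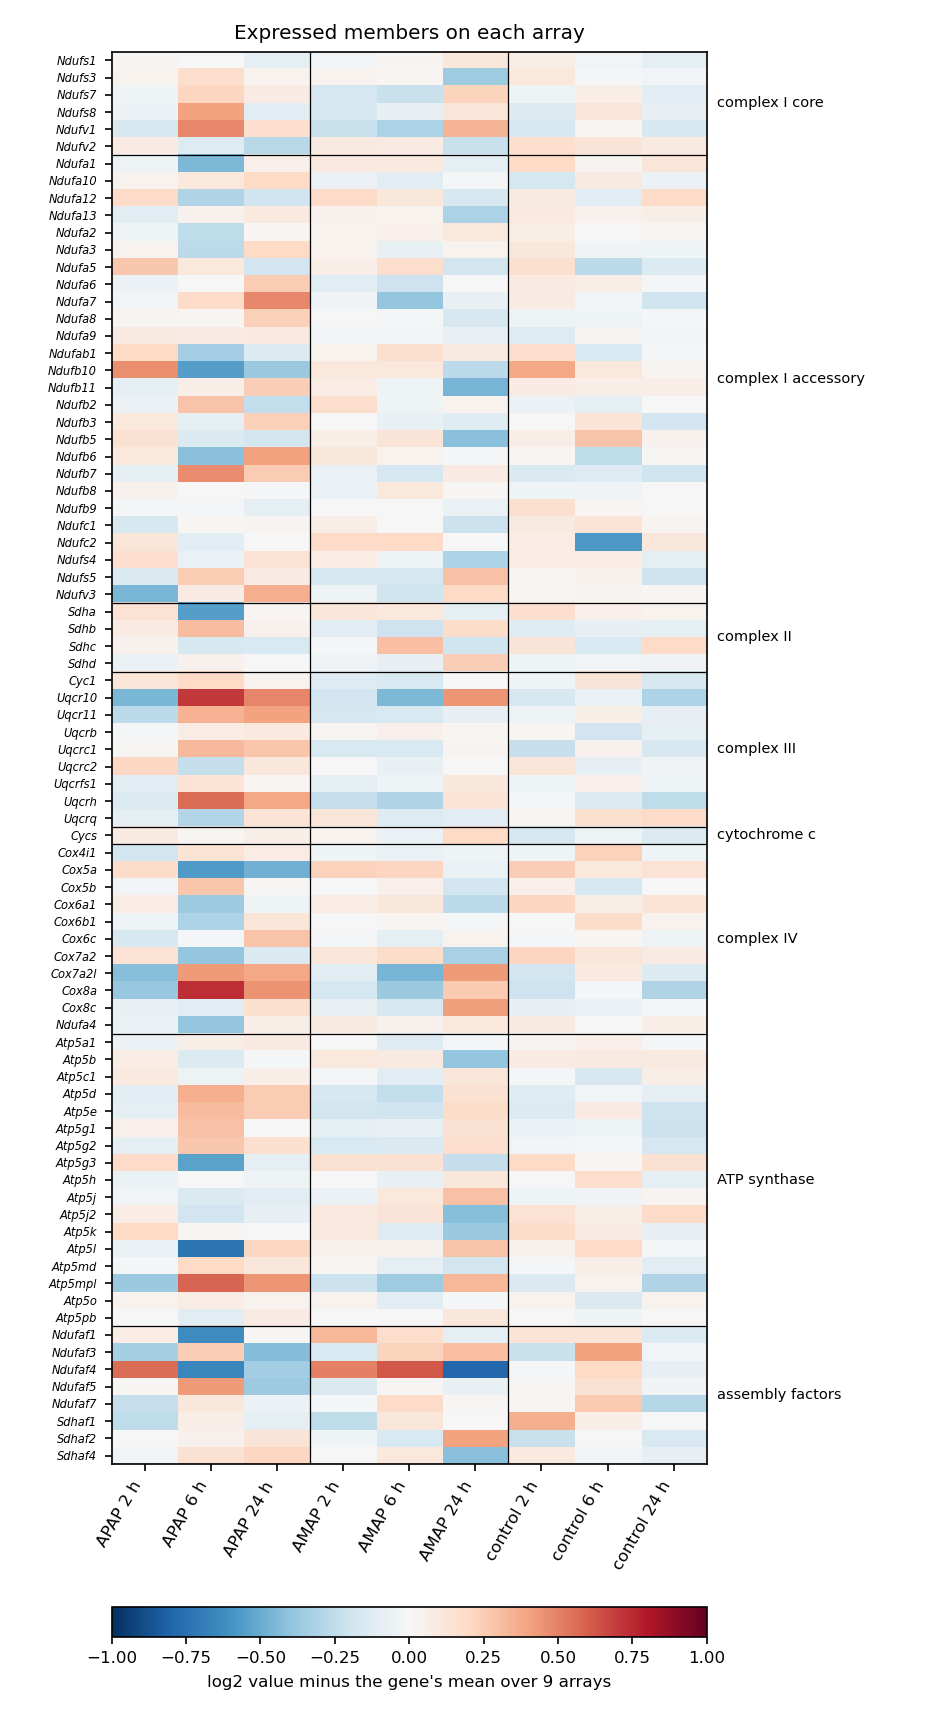
Each row is an expressed member, grouped by complex, and each column an array, with colour giving the log2 value minus the gene's mean over the 9 arrays. Colours are strongest for APAP at 6 and 24 h and for AMAP at 24 h, where Uqcr10 and Cox8a are high and Ndufaf4 is low.

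After 2 h in APAP the members as a whole were close to control. Their median difference was -0.037 log2, beside -0.014 for all expressed genes, and the SD of the differences was 0.165 against 0.365. In RNA from whole dishes, a change in which cells are present and a change in RNA per cell cannot be told apart. At 1.5-fold, 1 of 82 members was higher and 1 lower, where 3.76% of all expressed genes were higher and 6.03% lower. The higher one was Ndufaf4, with 8.20 in APAP and 7.62 in control, a difference of 0.59 that just passes 1.5-fold. The lower one was Sdhaf1, an assembly factor of complex II, with 8.12 in APAP and 8.74 in control, a difference of -0.63. Sdhaf1 was 8.44 and 8.37 in control at 6 and 24 h, so that its control value at 2 h is the highest of all 9 arrays. Ndufv3, an accessory subunit of the NADH-oxidising part of complex I, followed at -0.48, and its 9.75 in APAP at 2 h was its lowest value on any array.

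Subunits of complex IV lay on the same side of control at 2 h in APAP. Of 11 expressed subunits 10 were lower and 1 higher, where 3487 of all 6700 expressed genes were lower and 3034 higher. The median of the 11 subunits was -0.141, and no single one of them differed by more than 0.25. The largest differences were those of Cox7a2l, a factor that joins complexes III and IV, at -0.25, and of Cox8a, a small subunit with tissue-specific isoforms, at -0.17. Cox8c, at 0.01, was the exception. In AMAP at the same time 5 were lower and 5 higher, with a median of 0.000, and APAP against AMAP gave -0.050, with 8 lower and 1 higher. Without the filter on low values, which adds 6 subunits below the expression threshold, the APAP median at 2 h was -0.077. Both comparisons with control share the same control array, and the spread of such a median between replicate cultures was not measured. Cycs, the electron carrier that also triggers caspases once released, was 11.06 in APAP, 11.00 in AMAP and 10.80 in control at 2 h. It was thus 0.26 and 0.21 above control, and its control value at 2 h was the lowest of its 9. Its further expressed probe sets were 0.68 and 0.26 above control in APAP at 2 h, and 0.49 and 0.24 in AMAP. At 6 h they differed by -0.81 and -1.05 in APAP and by 0.73 and -0.06 in AMAP. At 24 h they differed by -0.20 and -0.32 in APAP and by -0.82 and -0.86 in AMAP.

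After 2 h in AMAP the median difference from control was -0.023, beside -0.007 for all expressed genes. Past 1.5-fold there was 1 member, Sdhaf1 at -0.62, and 0 were higher, where 2.64% of expressed genes were lower and 3.45% higher. Ndufaf4 was next to it in size, at 0.53, with 8.14 in AMAP. Among subunits, Ndufb2 was the highest at 0.24 and Ndufb10 the lowest at -0.28, both in the membrane arm of complex I. All 6 core subunits of complex I were lower than control, by 0.12 or less each, with a median of -0.072. Of all 6700 expressed genes 3407 were lower and 3024 higher. Between APAP and AMAP at this time the median difference was 0.000, and 0 of 82 members were 1.5-fold apart, where 2.55% of expressed genes were higher in APAP and 4.99% lower. The lowest members were Ndufv3 at -0.41 and Cox7a2l at -0.32, and the highest Ndufb10 at 0.36 and Cyc1, the haem-bearing subunit of complex III, at 0.25. Ndufaf4 and Sdhaf1, the members furthest from control, differed by 0.06 and 0.00 between the compounds.

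**Figure D2:**
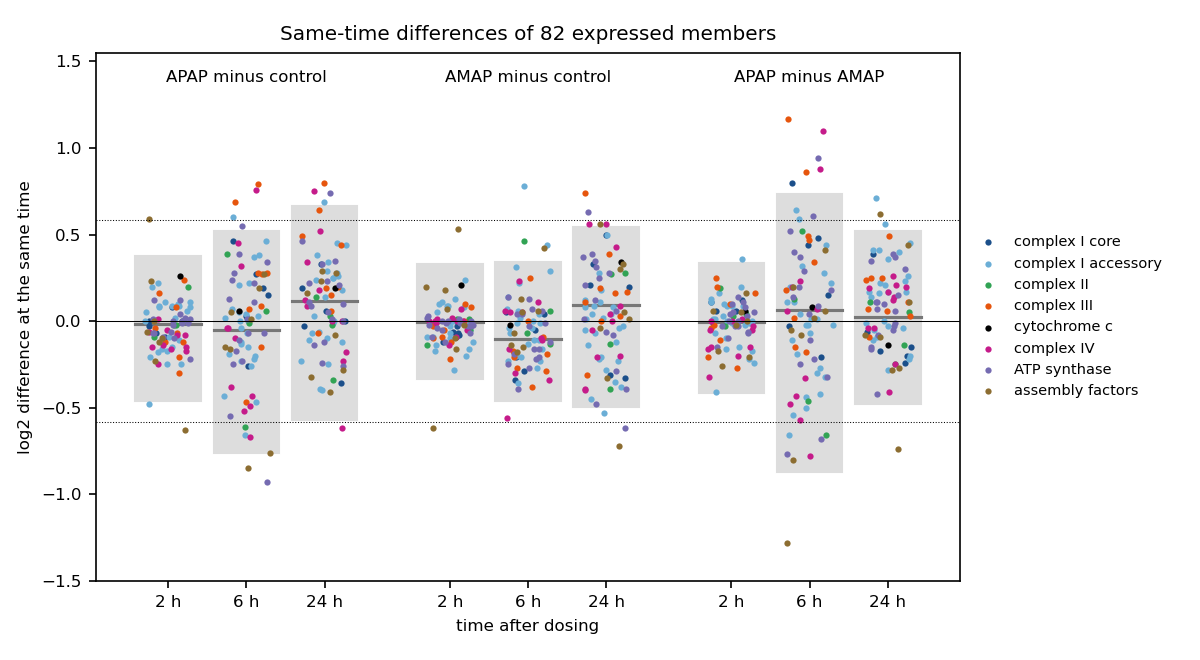
Points are the 82 expressed members, coloured by complex, and the vertical axis is the log2 difference between 2 arrays of the same time; horizontal position within a column is jitter. Grey boxes span the 10th to 90th percentile of all 6700 expressed genes with their median, and dotted lines mark 1.5-fold. Members lie mostly inside the boxes, and both are widest for APAP minus AMAP at 6 h.

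At 6 h in APAP the members spread to both sides of control. The median difference was 0.008, beside -0.049 for all expressed genes, with 43 members higher and 38 lower, and it was 0.092 with median centring and 0.128 with cyclic loess. At 1.5-fold 4 were higher and 6 lower, where 7.76% of all expressed genes were higher and 16.1% lower. The higher ones were Uqcr10, a small subunit of complex III, at 0.79, Cox8a at 0.76, Uqcrh, the hinge protein of complex III, at 0.69, and Ndufb7, an accessory subunit of complex I, at 0.60. The lower ones were Atp5l, subunit g of ATP synthase, at -0.93, Ndufaf4 at -0.85, Ndufaf1, another complex I assembly factor, at -0.76, Cox5a, a nuclear subunit of complex IV, at -0.67, Ndufb10 at -0.66 and Sdha, the flavoprotein of complex II that oxidises succinate, at -0.61. The 6 lower ones fall in 5 classes, and both complex IV and the accessory subunits of complex I had members on each side. Atp5l was lower on this array alone, with 9.97 there and 10.63 to 10.98 on the other 8. Sdha was likewise 9.36 there and 9.82 to 10.08 elsewhere, but its further probe set read 8.80 in APAP and 8.83 in control at 6 h.

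Among complexes, only the medians of complex III and of the core of complex I were above 0.100 at 6 h in APAP. Complex III had 7 of 9 subunits higher and a median of 0.267, and Uqcrq, a small subunit, was the lowest at -0.47. The core of complex I had 5 of 6 higher and a median of 0.167, led by Ndufv1, which carries the NADH site, at 0.46. The further probe sets of Ndufv1 read -0.11 and -0.03. Of all 6700 expressed genes 3017 were higher and 3648 lower. The median of complex IV was -0.098, although Cox5b, at 0.45, and Cox7a2l, at 0.32, lay beside Cox8a above control. The value of complex III depended on which probe sets were used, since with the mean of a gene's expressed probe sets it was 0.090 in place of 0.267, and that of the core of complex I was 0.071 in place of 0.167. In AMAP at 6 h the same 2 classes read lower than control, with medians of -0.185 and -0.129, and with the mean of expressed probe sets -0.185 and 0.007.

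After 6 h in AMAP the members stood near control again. Their median was -0.067, beside -0.104 for all expressed genes, and 1 of 82 was 1.5-fold higher and 0 lower, where 4.07% of expressed genes were higher and 4.48% lower. That member was Ndufc2, an accessory subunit of complex I, at 0.78. Its values were 10.47 in AMAP and 9.69 in control, and the control value at 6 h was its lowest by a clear margin, since the other 8 arrays lay between 10.16 and 10.47. Its further probe set read 9.22 in AMAP and 9.04 in control. Cox7a2l was the lowest member, at -0.56, and Atp5mpl, a small protein of ATP synthase, followed at -0.39. Sdhc, a membrane anchor of complex II, was 0.46 higher.

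**Figure D3:**
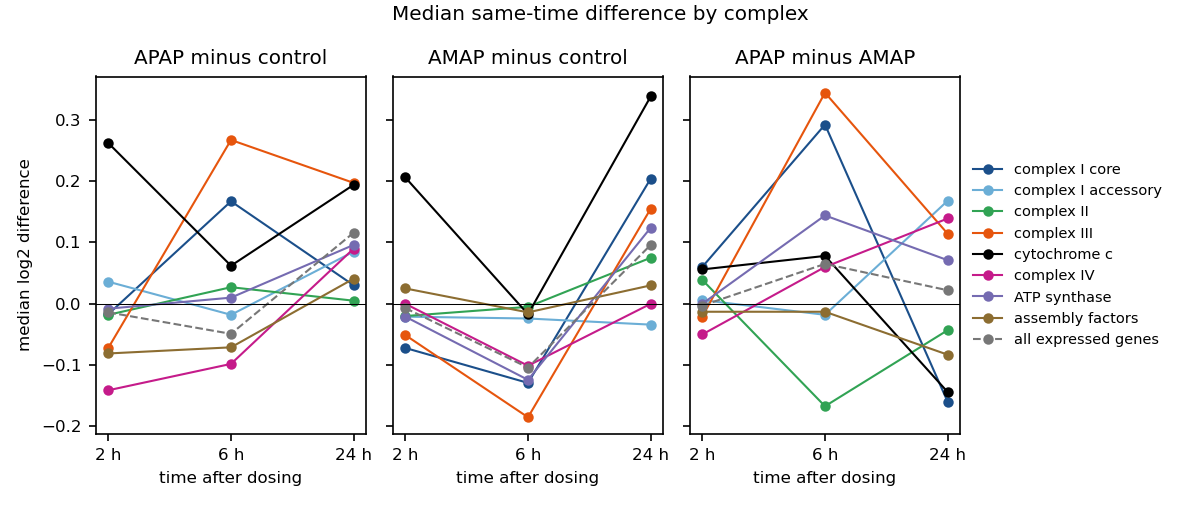
Points are the medians over the expressed members of each complex, and the dashed grey line is the median of all expressed genes, against time after dosing; the vertical axis is the log2 difference. Complex III reads 0.267 in APAP and -0.185 in AMAP at 6 h against control, and 0.197 and 0.155 at 24 h.

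APAP and AMAP stood furthest apart at 6 h. Of 82 members 9 were 1.5-fold higher in APAP and 7 lower, where 16.6% of expressed genes were higher and 17.2% lower. Members past 2-fold were Uqcr10, with 11.73 in APAP and 10.57 in AMAP, Cox8a, with 12.20 in APAP and 11.09 in AMAP, and in the other direction Ndufaf4, with 6.99 in APAP and 8.26 in AMAP. The differences were 1.17, 1.10 and -1.28, and control lay between the compounds for all 3, at 10.95, 11.44 and 7.84. Further members higher in APAP were Atp5mpl (0.94), Cox7a2l (0.88), Uqcrh (0.86), Ndufv1 (0.80), Ndufb7 (0.64), Atp5d, the delta subunit of the ATP synthase rotor (0.61), and Ndufa7 (0.59). Lower were Ndufaf1 (-0.80), Cox5a (-0.78), Atp5l (-0.77), Atp5g3, a gene for the proton-carrying subunit c (-0.68), Ndufb10 (-0.66) and Sdha (-0.66). Of these 16, 13 did not overlap between the 3 arrays apart and the other 6, a split that holds the APAP array of this comparison. Of all expressed genes 1.5-fold apart here, 48.9% did not overlap.

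Of the 16 members 1.5-fold apart between APAP and AMAP at 6 h, Cox5a, Cox8a, Ndufb7 and Uqcr10 had all their expressed probe sets past 1.5-fold in the same direction. They are 4 of 39 members with at least 2 expressed probe sets, and 9.61% of such genes over the array met this. Cox5a read between -2.66 and -0.61 over 3 probe sets, Cox8a 0.63 and 1.10, Ndufb7 0.64 and 0.69, and Uqcr10 0.67 and 1.17. In the other 8 same-time comparisons 0 of 39 did. The shares of all such genes at 2, 6 and 24 h were 4.55%, 5.77% and 7.08% in APAP against control and 3.01%, 1.46% and 2.85% in AMAP against control, and 3.44% and 3.32% in APAP against AMAP at 2 and 24 h. Sdha went the other way in this check, since its further probe set read 8.80 in APAP and 8.70 in AMAP.

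At 24 h in APAP the median difference of the members was 0.105, beside 0.116 for all expressed genes, with 52 higher and 26 lower. It was 0.008 with median centring and 0.156 with cyclic loess. At 1.5-fold 5 were higher and 1 lower, where 13.3% of expressed genes were higher and 9.67% lower. Uqcr10 was higher by 0.80, with 11.51 in APAP and 10.71 in control, and Cox8a by 0.75, with 11.91 in APAP and 11.16 in control. Atp5mpl (0.74), Ndufa7 (0.69) and Uqcrh (0.64) made up the rest. Cox5a was the lower one, with 10.84 in APAP and 11.46 in control, a difference of -0.62. It was the member below control by 1.5-fold at both 6 and 24 h. Complex III had 8 of 9 subunits above control and a median of 0.197, read from the probe sets that represent the genes. The further expressed probe sets of Uqcrb and Uqcrc2 were below control, at -1.1 and -2.52, and that of Uqcr10 above it, at 0.39. Of all 6700 expressed genes 4044 were above control and 2587 below.

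At 24 h in AMAP several of the same genes stood off control. The median was 0.040, beside 0.096 for all expressed genes, and 2 members were 1.5-fold higher and 2 lower, where 7.88% of expressed genes were higher and 7.94% lower. Uqcr10 was higher by 0.74, with 11.46 in AMAP and 10.71 in control, and Atp5mpl by 0.63. Ndufaf4 was lower, with 6.85 in AMAP and 7.56 in control, a difference of -0.72, and Atp5j2, subunit f of ATP synthase, differed by -0.62. Complex III again had 8 of 9 subunits above control, with a median of 0.155, and the 2 comparisons share the control array. Here too the further probe sets of Uqcrb and Uqcrc2 were below control, at -1.06 and -1.07, and that of Uqcr10 above it, at 0.53. Of all 6700 expressed genes 4002 were above control in AMAP and 2622 below. Between the compounds at 24 h, 2 of 82 members were 1.5-fold higher in APAP and 1 lower, where 7.87% of expressed genes were higher and 6.66% lower. Ndufb11, an accessory subunit of complex I, was higher by 0.71 and Sdhaf4, an assembly factor of complex II, by 0.62. Both were at their lowest of 9 arrays in AMAP at 24 h, 10.42 and 7.08. Ndufaf3, an assembly factor of complex I, was lower, with 6.56 in APAP and 7.30 in AMAP, a difference of -0.74. Within 1.5-fold, the highest was Ndufa7 at 0.56 and the lowest Atp5j, a subunit of the stalk of ATP synthase, at -0.42.

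Several of the genes that stood furthest off control at 6 and 24 h followed the 3 arrays that stand apart. Uqcr10 was 11.46 to 11.73 on those 3 arrays and 10.56 to 10.95 on the other 6. On the 3 arrays against the 6, Cox8a was 11.72 to 12.20 against 11.08 to 11.44, Uqcrh 10.64 to 11.06 against 10.20 to 10.48, and Atp5mpl 10.46 to 10.71 against 9.76 to 10.16. Cox5a was 10.75 to 11.25 on the 3 arrays and 11.42 to 11.56 on the 6, and Ndufaf4 6.85 to 7.29 against 7.56 to 8.26. At 2 h, when none of the 3 arrays is involved, Uqcr10 and Cox8a read lower in APAP than in control, with differences of -0.30 and -0.17. The 3 arrays are all of treated cells, so what sets them apart and the treatments cannot be told apart for these genes.

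Nuclear genes with a core role in catalysis or electron transfer varied among themselves in how far they stood from control. Ndufv1, which holds the NADH site of complex I, differed from control by -0.34 to 0.50. Ndufs1, the largest iron-sulfur protein of complex I, differed from control by -0.09 to 0.20 over all 6 comparisons of a treatment with control. Uqcrfs1, the Rieske iron-sulfur protein of complex III, lay between -0.09 and 0.16, and Cyc1 between -0.27 and 0.20. Atp5a1, the alpha subunit of ATP synthase, lay between -0.19 and 0.11, and its further expressed probe set between -0.36 and 0.39. Atp5b, the catalytic beta subunit, lay between -0.48 and 0.02, the lowest value being AMAP at 24 h. Sdhb, the iron-sulfur subunit of complex II, was 0.39 above control in APAP at 6 h, where Sdha was at -0.61 and its further probe set at -0.03. Cox4i1, the regulatory subunit IV of complex IV, lay between -0.30 and 0.12. Uqcrc1, a core protein of complex III, was above control in APAP at all 3 times, by 0.24, 0.28 and 0.44, and in AMAP it differed by 0.08, -0.19 and 0.19.

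Where a subunit has isoform genes, the form known from liver was the one detected. Cox4i1, Cox6a1, Cox6b1, Cox7a2 and Cox8a were all expressed, and Cox4i2, Cox6a2, Cox6b2, Cox7a1 and Cox8b, which are known from lung, muscle, testis or heart, were below the threshold in their mean. Of these 5, Cox6a2 alone was above the threshold on any array, with 5.94 in APAP at 6 h. Cox8c, another form known from testis, was 5.94 to 6.52 and so counted as expressed. Cox7c and Ndufb1 were the other members below the threshold, and their symbols belong to no such pair. Of the 3 genes for subunit c of ATP synthase, Atp5g1 and Atp5g2 were higher than control in APAP at 6 h, by 0.34 and 0.28, while Atp5g3 was at -0.55. At 24 h in AMAP they read 0.37, 0.35 and -0.39 in the same order. The 3 genes encode the same mature protein.

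Probe sets of the same gene did not always tell the same story at 6 and 24 h. There were 39 members with at least 2 expressed probe sets. In APAP against control the median gap between the probe sets of a gene was 0.079 at 2 h, 0.388 at 6 h and 0.353 at 24 h, and for AMAP 0.056, 0.274 and 0.388. Gaps of at least 1 log2 were found in 0 members at 2 h for either compound. For APAP they were found in 6 at 6 h and 6 at 24 h, 15.4% each, against 19.6% and 19.3% of all genes with at least 2 expressed probe sets, and for AMAP in 7 at 24 h, 17.9% against 17.9%.

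Where a further probe set stood off by 1 log2 from the one that represents the gene, it was the lower one in all 6 such members for APAP at 6 h, in all 4 at 24 h, and in all 7 for AMAP at 24 h. For AMAP at 6 h it was the higher one in both such members, Ndufb6 and Uqcrc2, whose further probe sets were low in control at 6 h. The choice by highest mean covers the 3 arrays apart, so a probe set that is low there is more readily the further one. This direction is thus partly set by the choice. Further probe sets of all genes, counted past 1.5-fold of control, leaned the same ways. For APAP, 838 were lower against 282 higher at 6 h, then 714 against 437 at 24 h. The AMAP counts were 139 lower against 453 higher at 6 h, then 647 against 285 at 24 h. The probe sets that represent these genes leaned these ways too, so the lean is not particular to further ones. In APAP 442 of them were lower and 140 higher at 6 h, and 323 and 245 at 24 h. In AMAP 85 were lower and 124 higher at 6 h, and 245 and 143 at 24 h. Ndufb6, an accessory subunit of complex I, shows the pattern of a low further probe set. The probe set that represents it read 9.48, 8.96 and 9.78 in APAP at 2, 6 and 24 h, 9.49, 9.41 and 9.36 in AMAP, and 9.40, 9.12 and 9.39 in control. The other one read 9.03, 5.66 and 6.33 in APAP, 8.66, 8.98 and 6.43 in AMAP, and 8.51, 7.58 and 8.58 in control. It was low on the 3 arrays apart and, less so, on control at 6 h. For Uqcrc2, a core protein of complex III, the probe set that represents the gene differed by 0.15 in APAP at 24 h and the further one by -2.52. For Cox5a all 3 probe sets were below control at 24 h in APAP, at -0.62, -1.93 and -0.57, while at 6 h 1 of them was above it, at 0.22. The cause of these gaps was not tested.

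**Figure D4:**
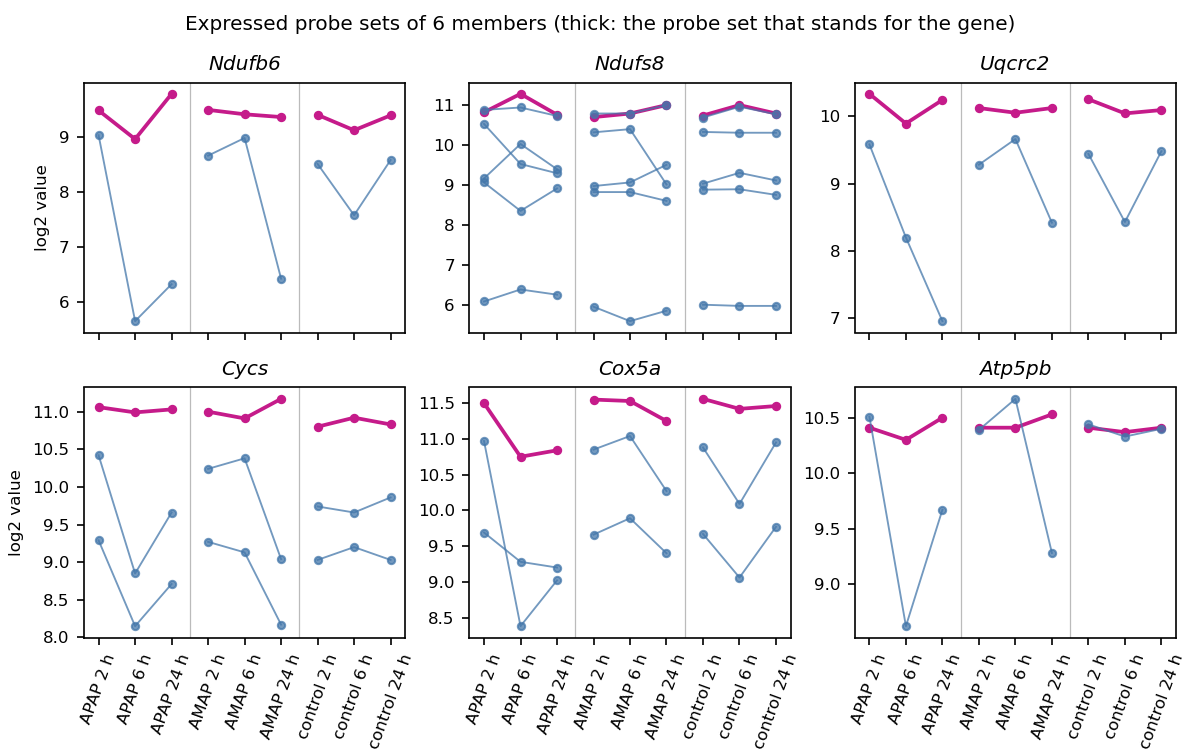
Lines are the expressed probe sets of 6 members across the 9 arrays, joined within a treatment over 2, 6 and 24 h, with the log2 value on the vertical axis; the thick line is the probe set that represents the gene. The further probe sets of Ndufb6, Uqcrc2, Cycs, Cox5a and Atp5pb are lower in APAP at 6 and 24 h and in AMAP at 24 h than at 2 h of the same treatment, and those of Ndufb6, Uqcrc2 and Cox5a also dip in control at 6 h.

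No member passed a test of the treatments over the 3 times. With limma, which used the 3 times as a block and 4 residual degrees of freedom, 0 of 82 members had an adjusted p under 0.05 in APAP against control, AMAP against control or APAP against AMAP, and 0 of 6700 expressed genes did (0.0%). At an unadjusted p under 0.05 there was 1 member in APAP against control, where 7.67% of expressed genes were past it, and 0 in the others, with 0.448% and 4.25%. The member was Cox5a, at -0.45 ± 0.193 log2 (SE), with an unadjusted limma p of 0.0451 and an adjusted p of 0.633. The probe set that represents it was lower in APAP at all 3 times, with differences of -0.06, -0.67 and -0.62. Its further probe sets differed by 0.08 and 0.01 at 2 h, -1.71 and 0.22 at 6 h, and -1.93 and -0.57 at 24 h. In APAP against control 0 members had an unadjusted limma p under 0.05 with the mean of all or of expressed probe sets. The count was also 0 with median centring. Ndufb7 (0.37 ± 0.186) and Uqcrc1 (0.32 ± 0.165) had the next smallest p in limma, with the same adjusted p of 0.633, and were higher in APAP at 3 of 3 times. In APAP against AMAP, Cox5a again had the smallest p, at -0.41 ± 0.193 and an adjusted limma p of 0.869, followed by Ndufa7 (0.39 ± 0.200) and Uqcrh (0.40 ± 0.219). In AMAP against control, Ndufc2 (0.26 ± 0.201), Atp5k (-0.20 ± 0.161) and Ndufb5 (-0.21 ± 0.181) came first, with an adjusted limma p of 1. Such a fit takes a difference that changes with time as error. On simulated arrays it found 0% of the genes changed in APAP by 0.5 log2 and 45% of those changed by 1. Counts of 0 thus cannot show that differences of 0.5 log2 are absent.

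The slopes on log2 time gave the same count. With 2 residual degrees of freedom, 0 of 82 members were called in any of the 3 contrasts by limma, as were 0 of 6700 expressed genes (0.0%), and 0 were at an unadjusted p under 0.05, against 3.43%, 0.985% and 2.0% of expressed genes for APAP against control, AMAP against control and APAP against AMAP. Ndufa7 and Ndufv3 had the smallest p for APAP against control, with differences of slope of 0.22 ± 0.143 and 0.22 ± 0.145 log2 per doubling of time, and an adjusted limma p of 0.994, followed by Atp5mpl at 0.26 ± 0.177. Ndufaf4 came first for AMAP against control, at -0.36 ± 0.223, and Ndufb11 for APAP against AMAP, at 0.25 ± 0.136, with adjusted limma p-values of 1 and 0.999. The next were Ndufs5 and Atp5mpl in AMAP against control, at 0.19 ± 0.148 and 0.21 ± 0.177, and Sdhaf4 and Ndufa13 in APAP against AMAP, at 0.19 ± 0.141 and 0.16 ± 0.137. A p that misses the threshold in 9 arrays does not show that the compounds act alike.

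The members were also grouped by promoter motif, as a description. In APAP at 6 h the 21 expressed members with an NRF1 match had a median difference from control of 0.063, the 20 with an ETS match 0.058, the 9 with a YY1 match -0.108, and the 26 with none of the 3 had 0.000. At 24 h these medians were 0.054, 0.146, 0.096 and 0.017. In AMAP against control they were -0.017, -0.153, -0.036 and -0.062 at 6 h, and -0.040, 0.210, 0.018 and 0.042 at 24 h, so that the ETS group was the furthest from control at both times. A promoter can fall in more than 1 of the first 3 groups. Sdha and Ndufaf4, both with NRF1 matches, were among the lowest members at 6 h in APAP, and Uqcrc1, with 3, was above control. Cox8a and Atp5l both hold ETS matches and lay at opposite ends, at 0.76 and -0.93.

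Control arrays set against each other show how far members differ without a treatment. Between 6 and 2 h 1 of 82 members was 1.5-fold higher (Ndufaf3, 0.64) and 1 lower (Ndufc2, -0.64), where 3.46% of expressed genes were higher and 2.61% lower. Between 24 and 2 h 0 members were past 1.5-fold, where 2.58% of expressed genes were higher and 1.33% lower. Between 24 and 6 h 1 was higher (Ndufc2, 0.68) and 0 lower, where 3.54% of expressed genes were higher and 5.52% lower. All 8 assembly factors were lower in control at 24 h than at 6 h, with a median of -0.233, and so were all 6 core subunits of complex I, with a median of -0.115. Of all 6700 expressed genes 4209 were lower in this comparison and 2358 higher. Over all 82 members the medians were 0.011 between 6 and 2 h, -0.053 between 24 and 2 h and -0.068 between 24 and 6 h. Those of all expressed genes were 0.066, -0.022 and -0.089. These medians of members are as large as several of those given above for treated cells.

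Other genes of the pathway were read from lists. The mitochondrial ribosome, which makes the mitochondrially encoded subunits, had 74 expressed genes. In APAP at 2 h 62 of them were above control and 11 below, with a median of 0.174 and 0 past 1.5-fold, while in AMAP 29 were above and 38 below, with a median of -0.004. APAP against AMAP gave 65 above and 9 below, with a median of 0.217 and 2 of 74 1.5-fold higher, where 2.55% of expressed genes were. Of all 6700 expressed genes 3034 were above and 3487 below control in APAP, and 3024 and 3407 in AMAP. In APAP against AMAP 3125 were above and 3379 below. At this time the members had medians of -0.037 and -0.023 against the same control array. At 6 h the medians were 0.120 in APAP and -0.088 in AMAP against control, and at 24 h 0.177 and 0.118. The furthest off were Mrpl19, a protein of the large subunit, at -1.86 in APAP against control at 24 h, and Mrpl1, of the same subunit, at -1.48 in APAP against AMAP at 6 h. On the other side Mrpl55 was 1.02 higher in APAP than AMAP at 6 h, and Mrps5, of the small subunit, 1.01 higher in AMAP than control at 24 h.

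Regulators of mitochondrial biogenesis, 16 expressed genes, had medians of 0.058 in APAP at 2 h, -0.375 at 6 h and -0.196 at 24 h. At 6 h 6 of them were 1.5-fold lower and 0 higher, where 16.1% of expressed genes were 1.5-fold lower. Tefm, a mitochondrial transcription elongation factor, was at -1.71, Tfam, which packages and transcribes mitochondrial DNA, at -1.28, and Mterf3 at -1.17, all on an array that stands apart. Against AMAP at 6 h Tefm was at -1.81. Ssbp1, which binds single-stranded mitochondrial DNA, was 0.75 higher in AMAP than control at 6 h. At 24 h Mterf3 and Yy1 were at -2.05 and -1.57 in APAP and at -1.71 and -1.79 in AMAP, and Polrmt, the mitochondrial RNA polymerase, was 0.81 higher in APAP. Nrf1 itself differed from control by 0.17, 0.08 and 0.01 in APAP at 2, 6 and 24 h and by -0.19, -0.53 and 0.56 in AMAP. Of the 14 genes of electron entry and ubiquinone synthesis, Coq8a (-0.96) and Sqor (-0.64) were 1.5-fold lower and Coq4 (0.63) and Gpd2 (0.59) 1.5-fold higher in APAP at 2 h, where 6.03% of expressed genes were lower and 3.76% higher. In AMAP at that time 0 of the 14 were 1.5-fold off control, where 2.64% of expressed genes were lower and 3.45% higher. At 24 h Gpd2, which passes electrons from glycerol 3-phosphate to ubiquinone, was at -1.65 in AMAP, Etfa, a subunit of the electron transfer flavoprotein, at -1.18 in APAP, and Coq6 0.75 higher in APAP. Etfb, the partner of Etfa, was 0.81 higher in APAP than AMAP at 6 h.

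Enzymes of the citric acid cycle, 15 genes, had a median of 0.070 in APAP at 2 h, -0.188 at 6 h and -0.010 at 24 h. Dld, the dehydrogenase shared by the pyruvate and oxoglutarate complexes, was at -1.70 in APAP at 6 h and at -1.04 in AMAP at 24 h, and Ogdh was 0.70 higher in APAP at 24 h. In APAP against AMAP at 6 h, Pdhb, of the pyruvate dehydrogenase complex, was 0.73 higher and Suclg2, of succinyl-CoA ligase, at -0.79. Carriers, channels and the ATP synthase inhibitor, 7 genes, were within 1.5-fold of control except at 24 h in APAP, when Vdac3 was at -0.86 and the inhibitor Atpif1 at -0.80, while the ADP/ATP carrier gene Slc25a4 was 0.49 higher. The carrier gene Slc25a5 was 0.45 higher in APAP than AMAP at 6 h. The 26 assembly factors that lie outside the naming rule had a median of 0.291 in APAP at 24 h. Of them 20 were higher and 6 lower, where 4044 of 6700 expressed genes were higher and 2587 lower. Tmem70, which helps assemble ATP synthase, was at -1.88 in APAP at 6 h and at -2.52 against AMAP. Ecsit, Cox19 and Coa5 were at 0.91, 0.89 and -0.62 in that comparison. In limma 0 genes of these 6 lists were called in any of the 6 tests, and at an unadjusted p under 0.05 in APAP against control the mitochondrial ribosome had 4 of 74 genes, all higher. Electron entry had 2 of 14 and the regulators and the assembly factors 1 each, all lower, and the remaining lists 0, where 7.67% of expressed genes were past it. In the other 5 tests each list had 0 to 2 such genes.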

How the data were processed

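RNA from TAMH cells was measured on 9 Affymetrix mouse 430A_2 arrays, 1 for each treatment and time. The deposited values are log2 expression per probe set, and the submitters' processing notes name RMA and Affymetrix Expression Console as the authors' tools. Which version was run, and whether it took the 9 arrays together, is not given in the sources used here. That method pulls arrays to a common distribution, so a shift of most genes cannot be seen. Of 22690 probe sets, 20380 had 1 gene symbol in the platform annotation, 691 had several and were left out (8 of them with a member's prefix), 1555 had none and 64 were controls. A gene was read from its probe set with the highest mean. Expressed genes (6700, threshold 5.67) entered limma 3.58.1 in R 4.3.3, with treatment and time as terms and 4 residual degrees of freedom, and a fit of slopes on log2 time with 2, both adjusted by Benjamini-Hochberg over all 6700 and tested on simulated data. With 200 genes changed in APAP by 0.5, 1 or 2 log2, the first fit found 0%, 45% and 88% of them against control. The slope fit found 0%, 66% and 98.5% at the same sizes per doubling of time. Arrays are single, so p-values measure the spread over times. Differences of 2 arrays have no test. The named genes were the 2 highest and 2 lowest members of each comparison, the 3 with the smallest p in each test, a set of core subunits, the isoform sets, and of each other list the 2 highest and 2 lowest genes over all comparisons; any other gene was named after its values were seen. The members and lists were chosen with earlier results of these data known. Alternatives were the mean of a gene's probe sets, no filter on low values, median centring, cyclic loess, the members without assembly factors, another variance prior, no time block, linear time, and leaving out each time or the 3 arrays apart.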

Additional observations from a re-analysis of the deposited data

Results flagged for a closer look

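Ndufaf4, the complex I assembly factor, was flagged because its difference from control ran in opposite directions at neighbouring times in APAP. It was 0.59 log2 above control at 2 h, with 8.20 in APAP and 7.62 in control, and at 6 h its difference was -0.85, with 6.99 in APAP and 7.84 in control. At 24 h it was -0.28. In AMAP the same gene read 0.53, 0.42 and -0.72 at the 3 times. Each value is a difference of 2 single arrays, and the difference between 2 and 6 h was not tested. The APAP arrays at 6 and 24 h and the AMAP array at 24 h, which hold its 3 lowest values, are those that stand apart in the middle dap probe set and the lower quartile. The part of this in the values was not tested. All of these values come from 1 probe set. The gene's other probe set, whose mean was below the expression threshold, differed from control by 0.22, 0.06 and -0.1 in APAP. In AMAP that probe set differed by -0.36, 0.71 and -0.45.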

How the results depend on the processing

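In limma 0 of 82 members were called in each of the 6 tests under all 54 alternative fits, from 0 to 0 when each time was left out in turn, and without the 3 arrays apart there were 1, 1 and 0 members at an unadjusted p under 0.05. The fit of shared differences pairs the treatments within each time, and without time as a block 0, 0 and 0 members (APAP against control, AMAP against control, APAP against AMAP) were at an unadjusted p under 0.05, against 1, 0 and 0 with it. No replicate number exists to pair samples by. Without replicates, moves of the members' median difference were read against the SD of their median level over the 3 control arrays (0.014 log2). Of the alternatives 34 moved the median difference by more than this, 19 did not, and 1 turned it. That SD is of levels. Median differences between control arrays were 0.011 (6 against 2 h), -0.053 (24 against 2 h) and -0.068 (24 against 6 h). A move past 0.014 can thus be smaller than a difference between 2 control arrays. APAP minus control was -0.021 at 2 h and 0.055 at 24 h with the mean of all probe sets, -0.020 and 0.057 with the mean of expressed ones (added after seeing the data), -0.019, 0.026 and 0.121 at 2, 6 and 24 h with no filter, -0.001, 0.092 and 0.008 with median centring, and 0.128 and 0.156 at 6 and 24 h with cyclic loess. AMAP minus control was -0.032 and 0.012 at 6 and 24 h with the mean of all probe sets, -0.037 and 0.007 with the mean of expressed ones, -0.043 and 0.059 with no filter, -0.008, 0.012 and -0.009 at 2, 6 and 24 h with centring, and -0.008, -0.036 and 0.073 with loess. APAP minus AMAP was -0.012 and 0.031 at 6 and 24 h with the mean of all probe sets, -0.018 (turned) and 0.070 with the mean of expressed ones, 0.071 at 24 h with no filter, 0.021 and 0.040 at 2 and 24 h with centring, -0.031 and 0.170 at 2 and 6 h with loess, and 0.066 and 0.103 at 6 and 24 h without assembly factors. Among medians of complexes 5 turned: complex II in APAP minus control at 2 h (0.032 with the mean of all probe sets, 0.018 with centring), complex IV in AMAP minus control at 6 h (0.038 with no filter) and APAP minus AMAP at 6 h (-0.054 with loess), and ATP synthase in APAP minus AMAP at 6 h (-0.152 with the mean of all probe sets). Counts of members 1.5-fold apart stayed within 1.5 times in 84 alternatives and moved further in 42. The cause of these moves was not tested. Single arrays limit all of these values, since no spread between cultures at 1 time was measured.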
